A study of Mus musculus with 47 samples.

Results

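The mitosis and spindle genes are 58 genes that encode kinases, motors, structural proteins and checkpoint proteins of cell division. They were chosen as a list of gene symbols by what their products do, with earlier results of these data known. Their share among called or top-ranked genes is thus a description, not an independent test. All 58 were found by symbol in the data. These hold 24507 genes in the 48 h, 96 h and day 11 tables and 26182 in the cell-cycle phase tables. RNA had been sequenced from mouse embryonic stem cells (ESCs) of the line E14Tg2A, grown without serum in N2B27 medium with the kinase inhibitors PD0325901 and CHIR99021 and with LIF, and from embryoid bodies (EBs), the clumps that ESCs form as they differentiate. The cells had received an siRNA against Tdg (siTdg) or a control siRNA (siC). The product of Tdg is thymine DNA glycosylase, which removes mismatched and oxidised pyrimidines from DNA. The 20 libraries used here form 10 groups of 2: siTdg and siC ESCs at 48 h, siTdg and siC ESCs at 96 h, siTdg and siC EBs at day 11, siTdg ESCs in G2M and in G1, and siC ESCs in G2M and in G1. All groups come from the same cell line and none carries a labelled mutation. The labels do not say how the phases were separated, which cells a phase fraction still holds, or whether both libraries of a group stem from separate cultures. The p-values therefore reflect only how far these libraries differ, which may be technical.

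A dividing cell raises many mitotic transcripts as it leaves S phase, through the MuvB complex with B-Myb and FoxM1, and represses them in G1 through the related DREAM complex. These complexes act at a promoter element called CHR, often with CCAAT boxes bound by NF-Y. The encoded proteins condense the chromosomes, build the bipolar spindle, attach kinetochores to microtubules, delay anaphase until all chromosomes are attached, and divide the cytoplasm. Mouse ESCs grown with serum cycle fast, with a short G1 phase and weak control of the step from G1 to S phase. The cells used here were grown without serum, and the lengths of their phases are not given in the labels.

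Reads assigned to genes ranged from 20818174 to 41433232 per library, and a single member held between 153 and 39645 of them. The targeted gene was checked first. Tdg stood at 7.34 and 13.2 RPKM (reads scaled to gene length in kilobases and to the depth of the library) in siTdg ESCs at 48 h against 46.0 and 43.4 RPKM in siC ESCs. In the phase libraries it stood at 9.64 and 7.53 RPKM in siTdg G1 against 54.8 and 59.6 RPKM in siC G1. In G2M it stood at 12.3 and 8.63 RPKM with siTdg against 61.6 and 63.1 RPKM with siC. None of these pairs of groups overlap. At 96 h Tdg was at 28.2 and 40.3 RPKM in siTdg ESCs against 35.8 and 46.0 RPKM in siC ESCs, and in EBs at 37.3 and 43.7 RPKM in siTdg against 35.1 and 38.5 RPKM in siC, so the siRNA groups overlapped at both later times. All 9 ESC markers listed, such as Pou5f1 and Nanog, were at 1 RPKM or more in every ESC group, where they summed to between 3822 and 8226 RPKM. They summed to between 28.0 and 119.8 RPKM in EBs.

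The clearest change in the 58 genes lay between cell-cycle phases. Together they took 1.21% and 1.13% of all reads in siTdg G2M against 0.798% and 0.804% in siTdg G1, and 1.21% and 1.11% in siC G2M against 0.832% and 0.838% in siC G1. Topoisomerase IIα (Top2a), the importin Kpna2, the kinase Aurkb and the spindle midzone protein Prc1 changed most, each by more than 1.5 on the log2 scale, while the checkpoint genes Bub1, Bub1b and Mad2l1 stood at nearly the same level in both phases. By limma with Benjamini-Hochberg adjustment over 12461 genes, 12 members were higher in G2M than in G1 in siTdg ESCs, where 0.144% of all genes were called higher, and 46 did not pass. In siC ESCs 9 members were called higher, against 0.0963% of all genes, and 49 did not pass. No member was called lower in either, where 0.0241% and 0.0161% of all genes were. The 9 genes called in siC ESCs were Top2a, Kpna2, Aurkb, Prc1, Depdc1b, Cdca2, Kif11, G2e3 and Nusap1, and all 9 were among the 12 called in siTdg ESCs, which also held Smc4, Kif18a and Kif14.

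Over all genes tested, 18 were called higher in G2M in siTdg ESCs, 12 of them members, and 12 in siC ESCs, 9 of them members. Ranked by change, 20 members stood among the 100 highest genes in siTdg ESCs and 18 in siC ESCs. The median change of the 58 members was 0.48 in siTdg ESCs, where that of all genes was 0.01, and 0.37 in siC ESCs, where that of all genes was 0.02. All values of change are differences of log2(RPKM + 0.5), which understates the change of low genes. Both G2M libraries lay above both G1 libraries for 43 members in siTdg ESCs, against 18.9% of all genes, and for 45 in siC ESCs, against 22.9% of all genes. The reverse order held for 2 members in siTdg ESCs, against 14.2% of all genes, and for 2 in siC ESCs, against 17.7%. Overlap between libraries was counted on the values rescaled for the fit, and on the values as deposited Cenpa alone had the reverse order in siTdg ESCs. These are bulk libraries, in which a different share of mitotic cells and a different amount of RNA per cell cannot be told apart.

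**Figure D1:**
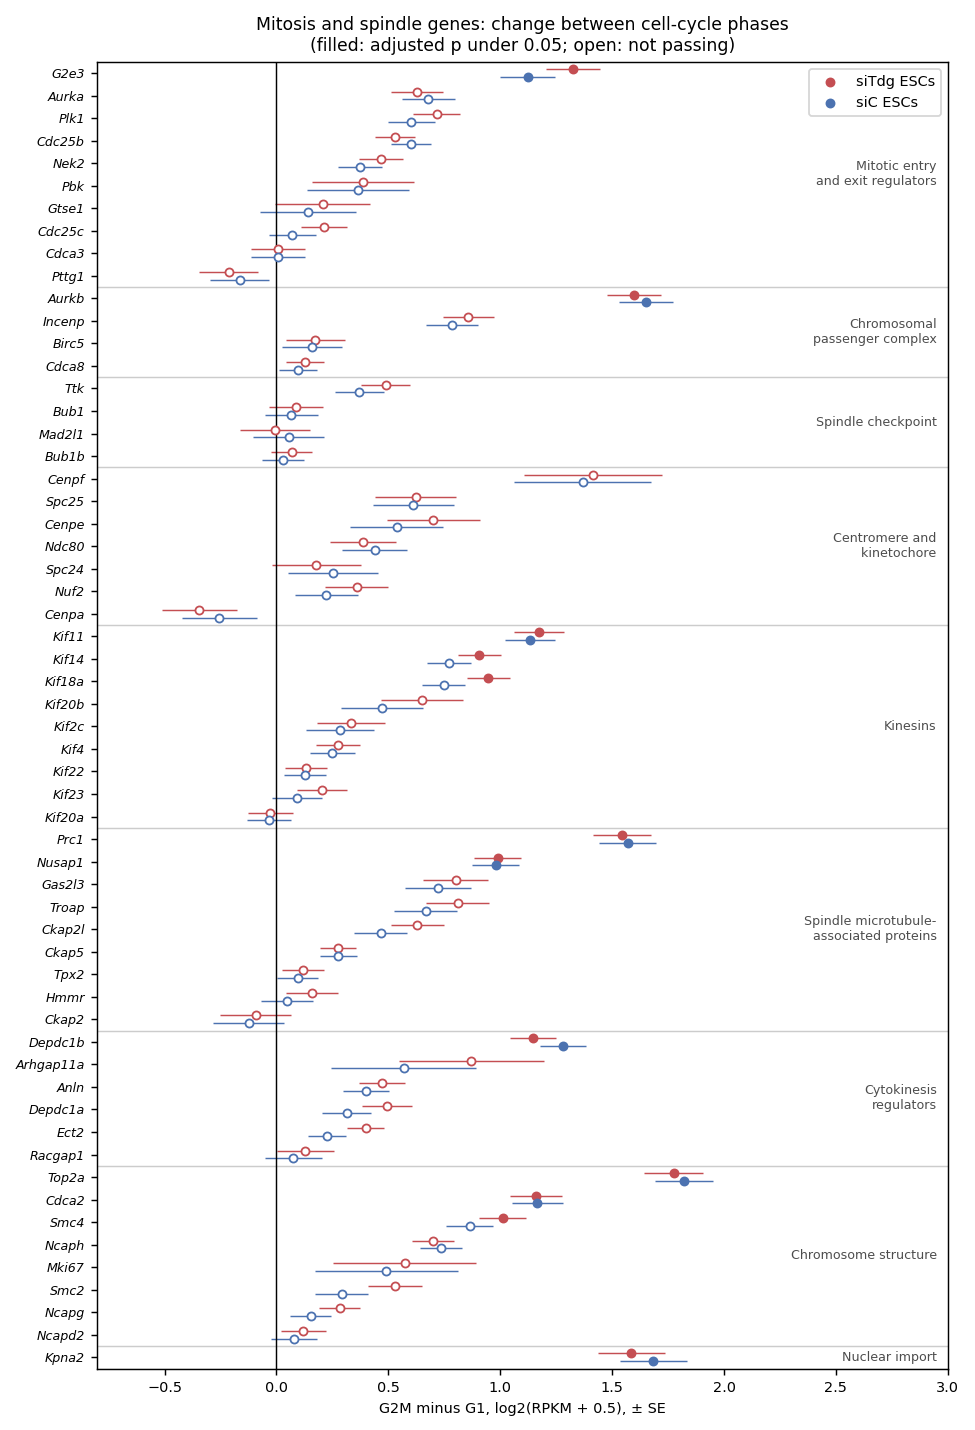
Difference between G2M and G1 for each of the 58 genes, on the log2(RPKM + 0.5) scale with its standard error, grouped by the role of the product, with siTdg ESCs above siC ESCs in each row. Filled points passed an adjusted p of 0.05, 12 of them in siTdg ESCs and 9 in siC ESCs, and most of the other members lie between 0 and 1 while Cenpa, Pttg1, Ckap2 and Kif20a lie below 0 with both siRNAs.

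Genes of chromosome structure held the largest change. Top2a, which untangles and compacts chromosomes, had 239 and 240.4 RPKM in G2M against 61.1 and 78.8 RPKM in G1 of siTdg ESCs, and 234 and 227 RPKM in G2M against 61.2 and 68.7 RPKM in G1 of siC ESCs. Its change was 1.78 ± 0.13 (SE, adjusted p = 0.0203) in siTdg ESCs and 1.82 ± 0.13 (SE, adjusted p = 0.0141) in siC ESCs. The G2M libraries were all above the G1 libraries by a wide margin, and the siRNA groups lay close together within each phase. Cdca2, a subunit that targets protein phosphatase 1 to chromatin at the end of mitosis, had 35.7 and 32.2 RPKM in G2M against 14.1 and 15.6 RPKM in G1 of siTdg ESCs, and 37.1 and 31.3 RPKM in G2M against 14.6 and 15.2 RPKM in G1 of siC ESCs. Its change was 1.16 ± 0.11 (SE, adjusted p = 0.0258) in siTdg ESCs and 1.17 ± 0.11 (SE, adjusted p = 0.0266) in siC ESCs. Of the condensin subunits, which fold mitotic chromosomes, Smc4 had 105 and 94.7 RPKM in G2M against 49.5 and 48.4 RPKM in G1 of siTdg ESCs, and 104 and 91.1 RPKM in G2M against 55.9 and 50.6 RPKM in G1 of siC ESCs. Its change was 1.01 ± 0.11 (SE, adjusted p = 0.0301) in siTdg ESCs and 0.86 ± 0.11 (SE, adjusted p = 0.0561) in siC ESCs, so that it passed the threshold only with siTdg, and the test of the difference between siRNAs, given further on, called no gene. The other condensin genes did not pass, with changes in siTdg and siC ESCs of 0.70 and 0.74 for Ncaph, 0.53 and 0.29 for Smc2, 0.28 and 0.15 for Ncapg, and 0.12 and 0.08 for Ncapd2. Ncapd2 was the least different member of the group, at 113 and 99.8 RPKM in G2M against 101 and 93.3 RPKM in G1 of siTdg ESCs, and 114 and 106 RPKM in G2M against 104 and 103 RPKM in G1 of siC ESCs. The condensin core subunit Smc4 and the non-core subunit Ncapd2 lay at opposite ends within the same complex. Mki67, which coats mitotic chromosomes and is the antigen Ki-67, had 43.6 and 25.9 RPKM in G2M against 28.4 and 17.6 RPKM in G1 of siTdg ESCs, and 44.1 and 34.4 RPKM in G2M against 32.2 and 23.6 RPKM in G1 of siC ESCs. Its phases overlapped with siTdg and lay side by side with siC, and its change of 0.57 with siTdg and 0.49 with siC did not pass.

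Kpna2, an importin alpha that binds nuclear cargo and spindle factors such as Tpx2, was the only nuclear import gene of the list and had the highest mean RPKM of all members in ESCs at 48 h and 96 h and in G2M. It had 397 and 420.3 RPKM in G2M against 116 and 157 RPKM in G1 of siTdg ESCs, and 405 and 386 RPKM in G2M against 116 and 129 RPKM in G1 of siC ESCs. Its change was 1.59 ± 0.15 (SE, adjusted p = 0.0225) in siTdg ESCs and 1.68 ± 0.15 (SE, adjusted p = 0.0200) in siC ESCs. Its G1 libraries lay near those of Cdca3, while its G2M libraries lay above those of every other member.

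Promoters of 6 members are shown to set genes that changed strongly beside genes that hardly changed. They are the 120 bases before the annotated start, 5′ to 3′ in the direction of the gene, from RefSeq (GRCm38.p6). Capitals mark CCAAT (or its reverse complement ATTGG) and the CHR sequence TTTGAA (or TTCAAA). Top2a, Kpna2 and Kif11 were called between phases with both siRNAs, and Ncapg, Kif22 and Cdca3 were not. Counted from the start, Ncapg also holds CCAAT at -176 and Cdca3 holds TTTGAA at 30, both outside the 120 bases shown. In the wider windows described below all 6 genes hold both sequences, so the stretches shown do not separate the 2 kinds of gene.
Top2a, chr11:99024190-99024309, minus strand: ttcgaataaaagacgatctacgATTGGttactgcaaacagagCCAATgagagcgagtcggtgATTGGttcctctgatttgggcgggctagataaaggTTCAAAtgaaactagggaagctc
Kpna2, chr11:106999526-106999645, minus strand: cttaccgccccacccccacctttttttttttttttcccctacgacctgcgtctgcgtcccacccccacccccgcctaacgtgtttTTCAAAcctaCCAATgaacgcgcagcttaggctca
Kif11, chr19:37376262-37376381, plus strand: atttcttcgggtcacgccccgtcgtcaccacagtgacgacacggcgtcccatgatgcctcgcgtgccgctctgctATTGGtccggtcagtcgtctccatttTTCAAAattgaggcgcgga
Ncapg, chr5:45669805-45669924, plus strand: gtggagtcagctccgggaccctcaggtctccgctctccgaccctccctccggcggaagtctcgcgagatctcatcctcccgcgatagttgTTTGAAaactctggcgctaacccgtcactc
Kif22, chr7:127042421-127042540, minus strand: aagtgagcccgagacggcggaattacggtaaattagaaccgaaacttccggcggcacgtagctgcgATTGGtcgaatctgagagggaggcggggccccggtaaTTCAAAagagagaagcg
Cdca3, chr6:124830056-124830175, plus strand: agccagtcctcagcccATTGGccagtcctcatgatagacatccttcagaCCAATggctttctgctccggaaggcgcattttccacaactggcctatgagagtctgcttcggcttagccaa
Windows of 300 bases, from 250 before to 50 after the start, were matched for 48 of the 58 members. Those not matched include Aurkb, Depdc1b and Cdca2, called between phases with both siRNAs, and Smc4, called with siTdg. Also not matched were Incenp, Pbk, Spc24, Cdc25c, Tpx2 and Kif20a. TTTGAA stood on either strand in 33 of the 48 (68.8%), against 18.1% of 27025 windows of all genes. In the 250 bases before the start alone the share was 33.3% of members against 16.3% of all windows. CCAAT stood in 36 of the 48 (75%), against 37.9% of all windows, and 29 (60.4%) held both, against 7.12%. The median change between phases in siC ESCs was 0.31 for the 33 members with TTTGAA and 0.54 for the 15 without, and 0.34 for the 36 with CCAAT and 0.42 for the 12 without. These letters were therefore common in the matched members, but the matched members that hold them did not have the higher median change. The medians leave out the called genes that were not matched, so they do not describe the whole list. A match is a description of the sequence, not of a bound factor.

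In the chromosomal passenger complex, which corrects wrong attachments of chromosomes and directs cytokinesis, the kinase and its scaffold differed most. Aurkb, the kinase, had 52.4 and 51.0 RPKM in G2M against 15.3 and 18.2 RPKM in G1 of siTdg ESCs, and 54.0 and 50.5 RPKM in G2M against 14.9 and 17.7 RPKM in G1 of siC ESCs. Its change was 1.60 ± 0.12 (SE, adjusted p = 0.0203) in siTdg ESCs and 1.65 ± 0.12 (SE, adjusted p = 0.0141) in siC ESCs. Every G2M library stood far above every G1 library. The scaffold Incenp had 74.97 and 67.3 RPKM in G2M against 39.5 and 38.2 RPKM in G1 of siTdg ESCs, and 77.4 and 63.9 RPKM in G2M against 40.4 and 40.8 RPKM in G1 of siC ESCs, without overlap, and its change of 0.86 and 0.79 in siTdg and siC ESCs did not pass (adjusted p = 0.0727 and 0.0941). The targeting subunits changed least. Birc5, also called survivin, differed by 0.17 and 0.16. Cdca8, also called borealin, had 95.4 and 89.9 RPKM in G2M against 82.7 and 86.0 RPKM in G1 of siTdg ESCs, and 93.8 and 88.3 RPKM in G2M against 84.3 and 85.9 RPKM in G1 of siC ESCs, a change of 0.13 ± 0.08 and 0.10 ± 0.08 (SE), which did not pass although the phases did not overlap. The 4 subunits of this complex ran from almost no change to one of the largest in the list.

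Among spindle microtubule-associated proteins 2 of 9 genes were called with either siRNA. Prc1, which bundles antiparallel microtubules of the spindle midzone, had 73.4 and 75.7 RPKM in G2M against 22.0 and 28.8 RPKM in G1 of siTdg ESCs, and 77.8 and 77.7 RPKM in G2M against 24.8 and 27.0 RPKM in G1 of siC ESCs. Its change was 1.54 ± 0.13 (SE, adjusted p = 0.0203) in siTdg ESCs and 1.57 ± 0.13 (SE, adjusted p = 0.0141) in siC ESCs. Nusap1, which stabilises microtubules near chromosomes, had 55.3 and 54.7 RPKM in G2M against 25.000 and 29.9 RPKM in G1 of siTdg ESCs, and 52.0 and 48.1 RPKM in G2M against 24.7 and 25.6 RPKM in G1 of siC ESCs, and its change was 0.99 ± 0.10 (SE, adjusted p = 0.0311) in siTdg ESCs and 0.98 ± 0.10 (SE, adjusted p = 0.0385) in siC ESCs. For both genes the phases were far apart and the replicates close. Gas2l3, which links actin and microtubules, differed by 0.80 and 0.72 in siTdg and siC ESCs without passing. Troap, a spindle-associated protein also called tastin, differed by 0.81 and 0.67, and Ckap2l by 0.63 and 0.47. The microtubule polymerase Ckap5 differed by 0.28 and 0.28, Tpx2, the activator of Aurora A, by 0.12 and 0.09, and Hmmr, a spindle pole protein, by 0.16 and 0.05. Ckap2, a spindle protein, was on the other side of 0, at 85.8 and 73.1 RPKM in G2M against 85.6 and 83.0 RPKM in G1 of siTdg ESCs, and 89.1 and 68.1 RPKM in G2M against 93.2 and 77.4 RPKM in G1 of siC ESCs. Its libraries overlapped between phases and its change of -0.09 ± 0.16 and -0.13 ± 0.16 (SE) did not pass.

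Of the 9 kinesins, motors that move along or take apart microtubules, 3 were called in siTdg ESCs and 1 in siC ESCs. Kif11, also called Eg5, which pushes the spindle poles apart, had 72.7 and 66.5 RPKM in G2M against 28.0 and 33.003 RPKM in G1 of siTdg ESCs, and 74.7 and 65.4 RPKM in G2M against 31.5 and 31.6 RPKM in G1 of siC ESCs. Its change was 1.17 ± 0.11 (SE, adjusted p = 0.0225) in siTdg ESCs and 1.13 ± 0.11 (SE, adjusted p = 0.0266) in siC ESCs. Kif18a, which limits the oscillation of chromosomes at the metaphase plate, had 25.2 and 22.2 RPKM in G2M against 11.7 and 12.3 RPKM in G1 of siTdg ESCs, and 23.9 and 22.5 RPKM in G2M against 14.0 and 13.2 RPKM in G1 of siC ESCs. Its change was 0.95 ± 0.10 (SE, adjusted p = 0.0273) in siTdg ESCs and 0.75 ± 0.10 (SE, adjusted p = 0.0612) in siC ESCs. Kif14, needed for cytokinesis, was lower in level, at 8.94 and 8.28 RPKM in G2M against 4.40 and 4.28 RPKM in G1 of siTdg ESCs, and 8.58 and 8.39 RPKM in G2M against 4.62 and 4.91 RPKM in G1 of siC ESCs, and its change was 0.91 ± 0.10 (SE, adjusted p = 0.0318) in siTdg ESCs and 0.77 ± 0.10 (SE, adjusted p = 0.0612) in siC ESCs. In all 3 the G2M and G1 libraries did not overlap with either siRNA, also where the test did not pass. The remaining kinesins did not pass. Kif20b differed by 0.65 and 0.47 in siTdg and siC ESCs, the microtubule depolymerase Kif2c by 0.33 and 0.29, the chromokinesins Kif4 by 0.27 and 0.25 and Kif22 by 0.13 and 0.13, and the centralspindlin motor Kif23 by 0.20 and 0.09. Kif20a, which brings the passenger complex to the midzone, had 69.9 and 66.8 RPKM in G2M against 66.3 and 72.7 RPKM in G1 of siTdg ESCs, and 73.0 and 64.1 RPKM in G2M against 68.5 and 71.7 RPKM in G1 of siC ESCs, with libraries of the phases overlapping and a change of -0.03 and -0.03.

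Of the 7 genes of the centromere and kinetochore none passed in limma, although one had a large change. Cenpf, a kinetochore protein that peaks in G2 and mitosis, had 32.3 and 20.04 RPKM in G2M against 10.9 and 7.77 RPKM in G1 of siTdg ESCs, and 31.6 and 22.0 RPKM in G2M against 12.0 and 8.16 RPKM in G1 of siC ESCs. Its change was 1.41 ± 0.31 (SE, adjusted p = 0.238) in siTdg ESCs and 1.37 ± 0.31 (SE, adjusted p = 0.271) in siC ESCs. The phases did not overlap, but replicate 1 was well above replicate 2 in all 4 groups. In the authors' deposited tables Cenpf was called with both siRNAs, at 1.47 in siTdg ESCs (adjusted p = 5.87e-34) and 1.41 in siC ESCs (adjusted p = 3.24e-90). Of the Ndc80 complex, which grips microtubules, Spc25 differed by 0.62 and 0.61 in siTdg and siC ESCs, Ndc80 by 0.39 and 0.44, Nuf2 by 0.36 and 0.22, and Spc24 by 0.18 and 0.25. The kinetochore motor Cenpe differed by 0.70 and 0.54. Cenpa, the histone H3 variant that marks centromeres, had the lowest change of all members, at 80.9 and 80.4 RPKM in G2M against 84.6 and 123 RPKM in G1 of siTdg ESCs, and 79.5 and 73.9 RPKM in G2M against 87.2 and 96.1 RPKM in G1 of siC ESCs. Both G2M libraries lay below both G1 libraries with each siRNA, and the change of -0.35 ± 0.17 (SE, adjusted p = 0.574) in siTdg ESCs and -0.25 ± 0.17 (SE, adjusted p = 0.817) in siC ESCs did not pass.

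The 4 spindle checkpoint genes, whose products hold back anaphase, had the smallest median change of the role groups, 0.08 in siTdg ESCs and 0.06 in siC ESCs. Ttk, the kinase that starts checkpoint signalling, was the highest, at 36.9 and 31.8 RPKM in G2M against 23.2 and 25.2 RPKM in G1 of siTdg ESCs, and 36.2 and 31.8 RPKM in G2M against 25.4 and 26.8 RPKM in G1 of siC ESCs. Its phases did not overlap and its change was 0.49 ± 0.11 (SE, adjusted p = 0.262) in siTdg ESCs and 0.37 ± 0.11 (SE, adjusted p = 0.415) in siC ESCs. Bub1b, also called BubR1, had 85.8 and 79.0 RPKM in G2M against 75.5 and 81.1 RPKM in G1 of siTdg ESCs, and 87.4 and 84.7 RPKM in G2M against 80.7 and 88.2 RPKM in G1 of siC ESCs, with overlapping phases and a change of 0.07 ± 0.09 and 0.03 ± 0.09 (SE). Bub1 differed by 0.09 and 0.07 and Mad2l1, the checkpoint inhibitor Mad2, by -0.01 and 0.05. None of the 4 passed.

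Of the 10 regulators of mitotic entry and exit, G2e3 was called with both siRNAs. G2e3, a ubiquitin ligase gene named for its expression in G2 and mitosis, was low, at 7.94 and 8.15 RPKM in G2M against 3.09 and 2.72 RPKM in G1 of siTdg ESCs, and 8.43 and 7.80 RPKM in G2M against 3.77 and 3.17 RPKM in G1 of siC ESCs. Its change was 1.32 ± 0.12 (SE, adjusted p = 0.0220) in siTdg ESCs and 1.12 ± 0.12 (SE, adjusted p = 0.0391) in siC ESCs. The G2M libraries were more than 2-fold above those of G1 in both cases. The kinases Aurka and Plk1, which mature the centrosomes and drive entry into mitosis, did not pass, with a change of 0.63 and 0.68 for Aurka and 0.72 and 0.60 for Plk1 in siTdg and siC ESCs. The Cdk1-activating phosphatase Cdc25b differed by 0.53 and 0.60, and its relative Cdc25c by 0.21 and 0.07. The centrosome kinase Nek2 differed by 0.47 and 0.37, the mitotic kinase Pbk by 0.39 and 0.36, the microtubule and p53 regulator Gtse1 by 0.21 and 0.14, and Cdca3, a trigger of mitotic entry, by 0.01 and 0.01. Pttg1, the securin that restrains separase, had 19.8 and 21.7 RPKM in G2M against 21.7 and 26.5 RPKM in G1 of siTdg ESCs, and 19.9 and 20.5 RPKM in G2M against 20.9 and 24.7 RPKM in G1 of siC ESCs. Its change of -0.21 ± 0.13 and -0.17 ± 0.13 (SE) did not pass.

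Of the 6 genes of cytokinesis only Depdc1b was called. Depdc1b, a DEP domain protein, had 10.5 and 9.89 RPKM in G2M against 4.18 and 4.43 RPKM in G1 of siTdg ESCs, and 11.9 and 10.5 RPKM in G2M against 4.27 and 4.34 RPKM in G1 of siC ESCs. Its change was 1.15 ± 0.10 (SE, adjusted p = 0.0220) in siTdg ESCs and 1.28 ± 0.10 (SE, adjusted p = 0.0141) in siC ESCs, and the phases were far apart. Its relative Depdc1a differed by 0.49 and 0.31. The cleavage furrow scaffold anillin (Anln) differed by 0.47 and 0.40, the RhoA activator Ect2 by 0.40 and 0.22, and the GTPase-activating gene Arhgap11a by 0.87 and 0.57, with a standard error of 0.32. Racgap1, the partner of Kif23 in centralspindlin, had 71.6 and 72.6 RPKM in G2M against 57.97 and 74.4 RPKM in G1 of siTdg ESCs, and 71.1 and 68.7 RPKM in G2M against 62.9 and 70.0 RPKM in G1 of siC ESCs, with a change of 0.13 ± 0.13 and 0.07 ± 0.13 (SE) and overlapping phases.

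**Figure D2:**
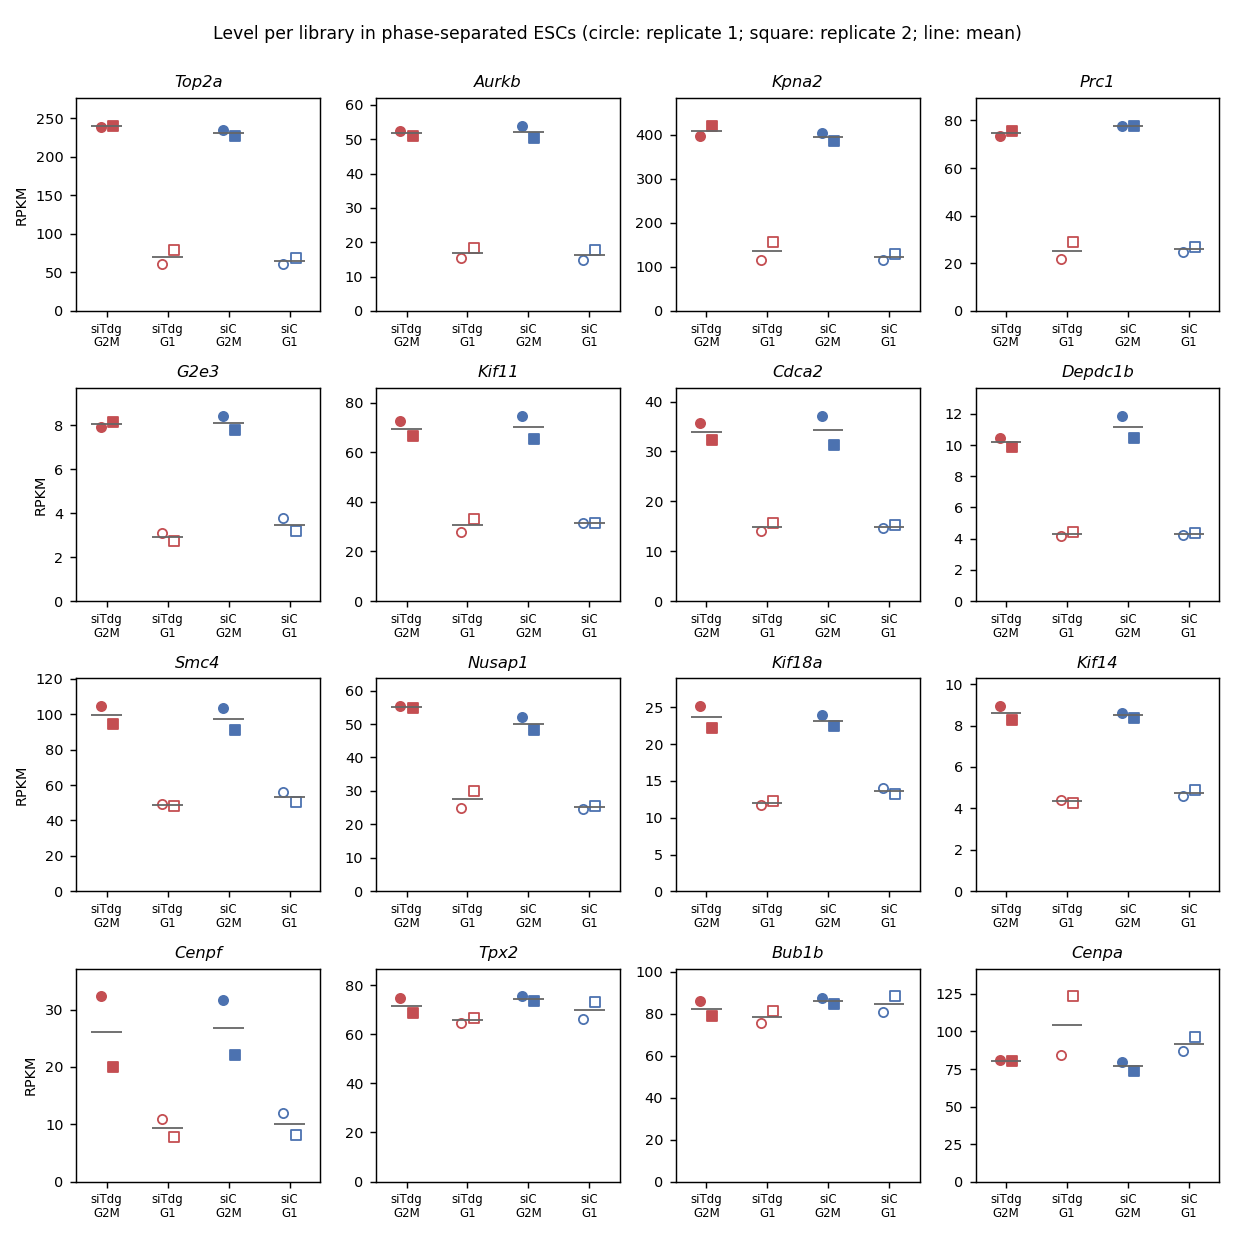
RPKM of 16 members in each of the 8 phase libraries, with siTdg and siC ESCs in red and blue, G2M filled and G1 open, replicate 1 as a circle, replicate 2 as a square and the group mean as a line; each vertical axis starts at 0. The 12 genes in the upper rows were called in siTdg ESCs and their G2M points stand clear of G1, Cenpf shows the split between replicates, and Tpx2, Bub1b and Cenpa lie at similar levels in both phases or, for Cenpa, lower in G2M.

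The number of members called depends on how the spread between libraries is estimated, and other fits called fewer or more. Both phase comparisons were fitted together over 8 libraries. With the replicate number added as a term, this fit called 34 members higher in G2M in siTdg ESCs and 30 in siC ESCs. It called 868 and 581 genes in all, and the labels name no pairing. Fitted on the 4 libraries of its own table alone, the siTdg comparison called 0 members and the siC comparison called 3 members. Without any one of its own 4 libraries the siC comparison called 0 members, and the siTdg comparison called 0, or 4 (Aurkb, Kpna2, Prc1 and Top2a) without siTdg G1 replicate 2. The changes themselves stayed large in these fits: that of Top2a lay between 1.60 and 1.95 in siTdg ESCs and between 1.73 and 1.91 in siC ESCs, and that of Aurkb between 1.49 and 1.71 in siTdg ESCs and between 1.53 and 1.78 in siC ESCs.

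The authors' deposited tables, made with another model, called more members. In the authors' deposited table for siTdg phases 32 members were higher in G2M, against 4.14% of all genes with an adjusted p, and 0 were lower, against 0.878%. In the authors' deposited table for siC phases 36 members were higher, against 6.23% of all genes, and 1 was lower, against 2.24%. The 1 lower member was Cenpa, at -0.26 (adjusted p = 0.0318) in the authors' deposited table. The 2 sets of the authors' deposited calls shared 31 members, which are 96.9% of those with siTdg and 86.1% of those with siC. By role the authors' deposited tables called 6 of 8 chromosome structure genes with either siRNA, and 1 of 4 checkpoint genes, Ttk. Of the 9 kinesins 4 were called with siTdg and 6 with siC in the authors' deposited tables. The names of these tables hold the word paired, and what was paired is not given in the sources used here.

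A further deposited comparison set SG2M, a fraction that by its name also holds S phase, against G1 at 0 h. Its libraries match no labelled sample, so only the authors' own values are given, with the sign turned so that positive means higher in SG2M. The orientation was read from genes outside the list: of 333 called both there and between siC phases, 323 (97.0%) had opposite signs as deposited. In the authors' deposited table for 0 h 57 of 58 members were higher in SG2M, against 8.87% of all genes, and 0 were lower, against 2.69%. The median of the members in the authors' deposited table was 1.30, with a range from 0.34 for Gas2l3 (adjusted p = 0.366) to 2.67 for Aurkb. Members that lay near 0 between siC phases were higher at 0 h: in the authors' deposited tables Kif20a was at 1.23 at 0 h beside -0.03 between siC phases, Hmmr at 1.31 beside 0.05, Bub1b at 1.16 beside 0.03 and Tpx2 at 1.16 beside 0.10. Gas2l3 was the reverse, at 0.34 at 0 h and 0.77 between siC phases in the authors' deposited tables. Its mean normalised count there was 5262 at 0 h against 1538 in siC phases, and its standard error 0.22 against 0.10. The reason for this unlike level was not tested. The order of the members was alike, with Pearson's r of 0.83 and Spearman's rho of 0.80 across the 58 genes of the authors' deposited tables, which are not independent replicates. The fractions differ between these experiments, so no test of the difference was made.

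**Figure D3:**
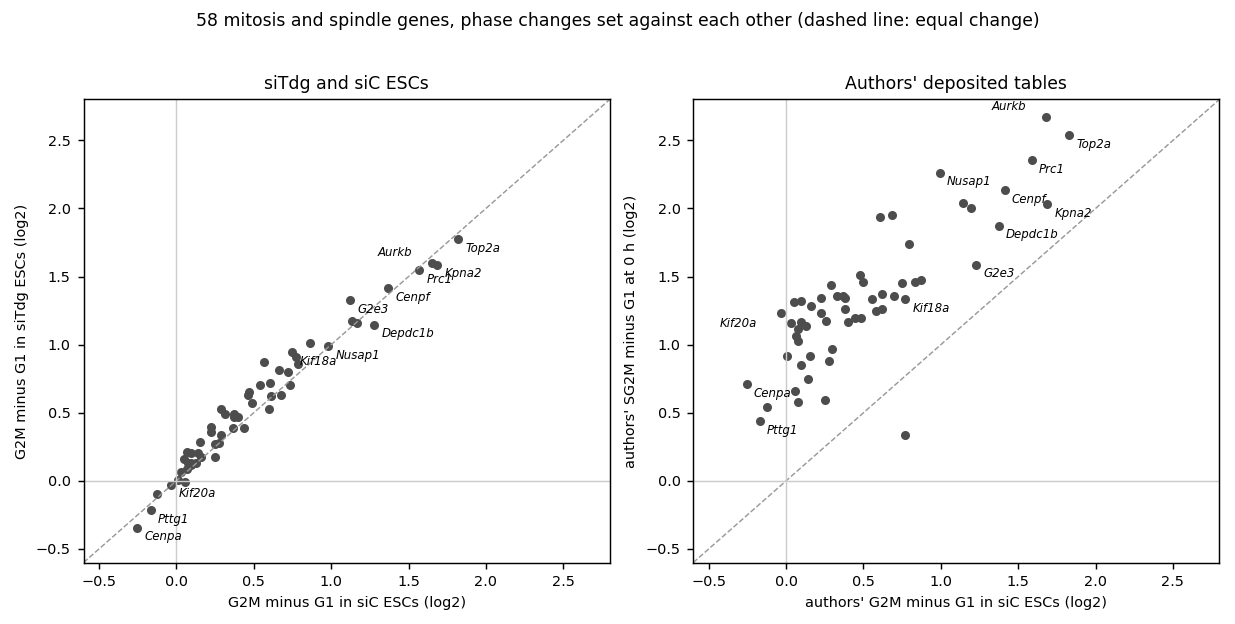
Left, the G2M minus G1 change of each of the 58 genes in siTdg ESCs (vertical axis) against siC ESCs (horizontal axis), and right, the authors' deposited SG2M minus G1 change at 0 h (vertical) against the authors' G2M minus G1 change in siC ESCs (horizontal), all on log2 scales with a dashed line of equal change. On the left the points lie along the line (Pearson's r of 0.98), and on the right all but Gas2l3 lie above it.

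Other cell-cycle genes were set beside the members. Of 55 further genes of G2 and mitosis limma called 4 higher in G2M in siTdg ESCs (median of all 55, 0.30). In siC ESCs it called 1 higher (median 0.25), with 0 lower in both. With siTdg, 21 of the 55 were higher and 0 lower in G2M in the authors' deposited table. With siC 24 were higher and 1 was lower in the authors' deposited table. Of the 53 matched in the authors' deposited table for 0 h, 51 were higher in SG2M and 0 were lower. The rise at 0 h was thus not limited to the members. Ube2c, the ubiquitin-conjugating enzyme of the anaphase-promoting complex, had 352 and 322 RPKM in G2M against 124 and 148 RPKM in G1 of siTdg ESCs, and 329 and 300.1 RPKM in G2M against 124 and 135 RPKM in G1 of siC ESCs. Its change was 1.30 ± 0.12 (SE, adjusted p = 0.0220) in siTdg ESCs and 1.28 ± 0.12 (SE, adjusted p = 0.0247) in siC ESCs, without overlap. Among the others called in siTdg ESCs were the spindle protein gene Fam83d at 1.01 ± 0.12 (SE, adjusted p = 0.0429) and the cohesin protector Sgo2a at 0.75 ± 0.09 (SE, adjusted p = 0.0431). Of 37 genes of G1 and S phase 0 were called in either direction by limma, with a median of -0.13 in siTdg ESCs and -0.08 in siC ESCs. With siTdg, 1 of the 37 was higher and 5 were lower in G2M in the authors' deposited table, and with siC 3 were higher and 12 lower in the authors' deposited table. In the authors' deposited table for 0 h, where SG2M was set against G1, 18 of the 37 were higher and 1 was lower.

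Tdg siRNA gave no called change in the phase pattern of the members. Their changes with siTdg and with siC had Pearson's r of 0.98 and Spearman's rho of 0.98 across the 58 genes, which are not independent replicates, and 57 had the same sign. The test of the difference itself, an interaction of phase and siRNA in limma, called 0 members and 0 genes (0% of 12461), with 35 genes and 0 members at an unadjusted p under 0.05. The difference was 0.04 in the median of the members, with 42 above 0 and 16 below, and 0.01 in the median of all genes. The smallest p among members was that of Kif18a, with a difference of 0.20 ± 0.14 (SE, adjusted p = 1.00). Ect2 followed at 0.17 ± 0.12 and Smc2 at 0.24 ± 0.17. A p that misses the threshold does not show that the 2 changes are equal. The standard error of this difference had a median of 0.17 over the members.

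In unseparated ESCs at 48 h one member stood apart. Tpx2, the spindle assembly factor that activates Aurora A, had 44.4 and 39.2 RPKM in siTdg ESCs at 48 h against 65.6 and 54.7 RPKM in siC ESCs. Both siTdg libraries were below both siC libraries. Its change was -0.52 ± 0.17 (SE), with an unadjusted p of 0.0222 and an adjusted p of 1.00 by limma, so it was not called. In the authors' deposited table it was at -0.52 with an adjusted p of 5.52e-07, and was the only member called there, where 1.23% of all genes were called lower. By limma 0 members and 0 of 12190 genes (0%) were called at 48 h, with 54 genes and 1 member at an unadjusted p under 0.05. Tdg itself, the targeted gene, was not called at 48 h, with a change of -2.12 ± 0.31 (SE, unadjusted p = 0.000325 by limma). The lack of calls therefore says little of smaller changes in the members. The median of the members was 0.02, that of all genes -0.01, and 34 members were above 0. Both siTdg libraries lay above both siC libraries for 6 members, against 8.71% of all genes, and below them for Tpx2 alone, 1 of 58, against 10.1% of all genes. Pttg1, the securin gene, had the next lowest change, with 30.7 and 44.0 RPKM in siTdg ESCs at 48 h against 41.5 and 52.5 RPKM in siC ESCs. The groups overlapped and its change was -0.34 ± 0.37 (SE), which did not pass, and the authors' deposited table gave -0.34 (adjusted p = 0.0852). Depdc1b had 12.8 and 10.2 RPKM in siTdg ESCs at 48 h against 10.6 and 9.54 RPKM in siC ESCs and Ncapd2 62.5 and 75.3 RPKM in siTdg ESCs at 48 h against 71.0 and 82.9 RPKM in siC ESCs. Depdc1b and Ncapd2 had the next smallest p after Tpx2, with changes of 0.17 ± 0.19 and -0.16 ± 0.17 (SE), and their groups overlapped.

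At 96 h Tpx2 had 58.1 and 50.5 RPKM in siTdg ESCs at 96 h against 54.8 and 52.5 RPKM in siC ESCs, and the siRNA groups overlapped. In the phase libraries, where Tdg was low with siTdg, Tpx2 also overlapped between siRNAs. It had 64.6 and 66.6 RPKM in siTdg G1 against 66.3 and 73.2 RPKM in siC G1. In G2M it had 74.7 and 68.5 RPKM with siTdg against 75.4 and 73.4 RPKM with siC. The lower level at 48 h was thus not seen in every set of libraries with low Tdg. The difference between the times, 96 h minus 48 h, was 0.53 ± 0.25 (SE, unadjusted p = 0.0698, adjusted p = 1.00 by limma) for Tpx2 and was not called, nor was it for any other member or gene (0% of 12190), with 15 genes at an unadjusted p under 0.05. At 96 h limma called 0 members and 0 genes (0%), with 11 genes and 0 members at an unadjusted p under 0.05, and the authors' deposited table called 0 of the 54 members with an adjusted p, against 0.048% of all genes higher and 0.0961% lower. Of the 58 members 48 were above 0, with a median of 0.07, against 51.3% of all genes and a median of 0.0041. Both siTdg libraries lay above both siC libraries for 9 members, against 4.56% of all genes, and below them for 0, against 4.46%. The 9 include the condensin genes Ncapg and Smc2 and the kinesins Kif11 and Kif20a. Ncapg had 28.2 and 29.0 RPKM in siTdg ESCs at 96 h against 23.8 and 26.3 RPKM in siC ESCs, Kif20a 69.2 and 68.1 RPKM in siTdg ESCs at 96 h against 58.7 and 64.0 RPKM in siC ESCs, and Depdc1a 4.98 and 9.18 RPKM in siTdg ESCs at 96 h against 4.23 and 6.12 RPKM in siC ESCs. Their changes of 0.19 ± 0.16, 0.16 ± 0.15 and 0.38 ± 0.34 (SE) had the smallest p of the members, and the groups of Depdc1a overlapped. In simulated data of the 48 h comparison the test recovered 62% of 4-fold and 19% of 2-fold changes. At 96 h it recovered 60% and 13%. For the difference between the times it recovered 14% of 4-fold and 0% of 2-fold changes. The simulation drew each library independently, while same-numbered libraries deviated together (correlation of 0.85 at 48 h and 0.93 at 96 h). These shares need not hold for the real libraries. The lack of a call for Tpx2 does not show that its change was the same at both times.

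**Figure D4:**
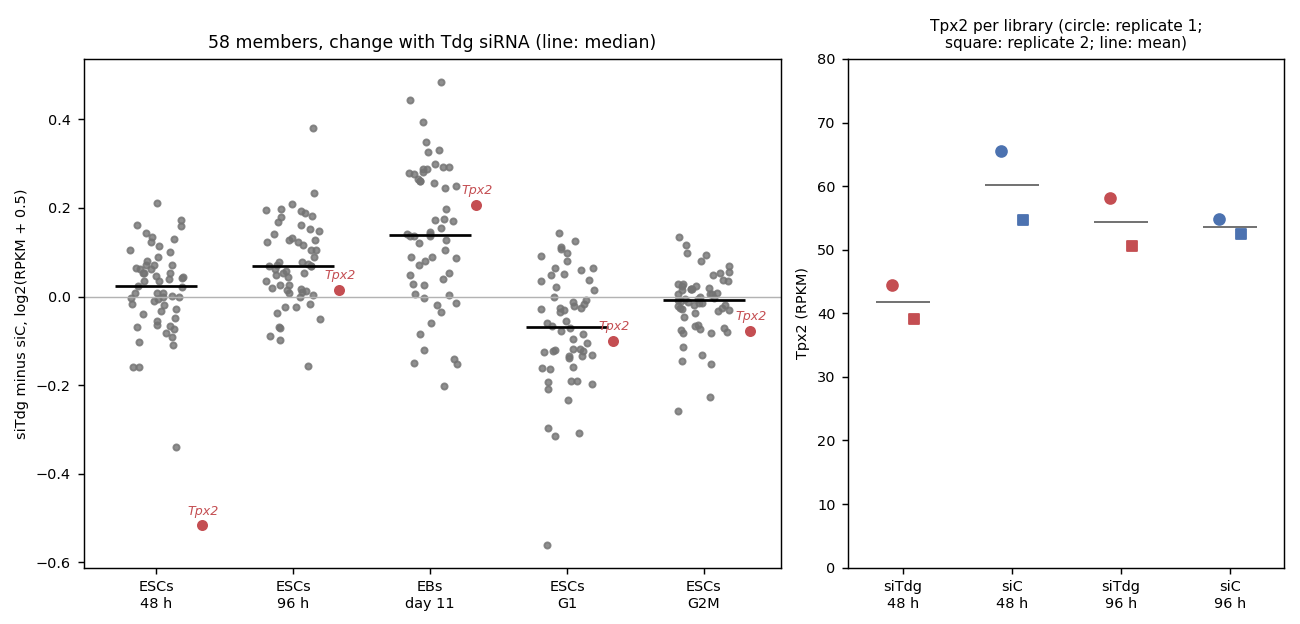
Left, the siTdg minus siC change of each of the 58 genes in 5 comparisons on the log2(RPKM + 0.5) scale, with the median as a line and Tpx2 in red, and right, RPKM of Tpx2 in each ESC library at 48 h and 96 h with the group mean as a line. Tpx2 is the lowest point at 48 h, at -0.52, and lies among the other members in the remaining comparisons.

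In day 11 EBs the members together took a smaller share of reads than in ESCs, and replicates stood apart. The 58 genes took 0.388% and 0.430% of reads in siTdg EBs and 0.386% and 0.371% in siC EBs, beside 0.875% to 0.945% in the 8 ESC libraries of 48 h and 96 h. EBs and ESCs were deposited in tables scaled separately, so no test was made between them. As deposited, 51 members had a lower mean RPKM over the 4 EB libraries than over these 8 ESC libraries. For 44 of the 58 all EB libraries lay below all ESC libraries. The same counts were not made over all genes, so these numbers do not show whether the members differ from other genes. The mean was higher in EBs for 7, namely Mad2l1, Cenpa, Spc25, Nuf2, Pbk, Depdc1a and G2e3, whose libraries overlapped with those of ESCs. Kpna2 was at 98.8 and 139.6 RPKM in siTdg EBs and 94.4 and 119 RPKM in siC EBs. Replicate 2 differed from replicate 1 by over 2-fold for 17 members in siTdg EBs and 12 in siC EBs, against 37.9% and 32.2% of all genes. Mad2l1 was the extreme case, with 28.6 and 256 RPKM in siTdg EBs against 29.9 and 251 RPKM in siC EBs. Replicate 2 was higher with both siRNAs, by 3.13 and 3.05 on the log2 scale. Cenpa had 30.8 and 137 RPKM in siTdg EBs against 31.4 and 151 RPKM in siC EBs, and Spc25 21.7 and 99.9 RPKM in siTdg EBs against 20.9 and 89.9 RPKM in siC EBs, with the same split, while Ckap5 had 24.7 and 12.1 RPKM in siTdg EBs against 20.2 and 10.0 RPKM in siC EBs and split the other way.

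Between siTdg and siC EBs limma called 0 members and 0 of 13300 genes (0%), with 20 genes and 0 members at an unadjusted p under 0.05. The authors' deposited table for EBs also called 0 members, against 0.0596% of all genes higher and 0.0149% lower. In all 47 members were above 0, with a median of 0.14, against 54.4% of all genes and a median of 0.02. Both siTdg libraries lay above both siC libraries for 8 members, among them Kif20b, Kif11, Smc2 and Prc1, against 5.17% of all genes, and below them for 1, Ncapd2, against 4.13%. The members with the smallest p were Ect2, Kif20b and Bub1. Ect2 had 12.4 and 20.6 RPKM in siTdg EBs against 10.4 and 13.0 RPKM in siC EBs, and its change was 0.44 ± 0.44 (SE). Kif20b had 7.84 and 6.53 RPKM in siTdg EBs against 6.21 and 4.88 RPKM in siC EBs, and its change was 0.35 ± 0.35 (SE). Bub1 had 14.6 and 27.9 RPKM in siTdg EBs against 12.5 and 16.4 RPKM in siC EBs, and its change was 0.48 ± 0.49 (SE). On the log2 scale the siTdg replicates of Ect2 and Bub1 differed by more than the siRNA groups did, and the siC replicates by less. In simulated EB data, with each library drawn independently, this fit recovered 0% of 4-fold changes. Same-numbered EB libraries deviated together (correlation of 0.95 over all genes), so this share need not hold for the real libraries. The lack of calls in EBs does not show that the members were unchanged. Markers of differentiated cells also varied between EB libraries: 4 mesenchyme markers summed to between 171 and 3462 RPKM in siTdg EBs and between 253 and 2611 RPKM in siC EBs, and their part in the members' values was not tested.

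Within a phase, Tdg siRNA gave small differences. This comparison rests on scaling both phase tables together, with factors between 0.987 and 1.01. In G1 limma called 0 members, while 1 gene, Tdg itself, was called lower (0.00803% of 12461 genes). In all 42 members were below 0, with a median of -0.07, against -0.01 for all genes. Both siTdg libraries lay below both siC libraries for 20 members, against 15.4% of all genes, and above for 1, Cdc25b, against 10.6%. The lowest member was Arhgap11a, with 16.6 and 9.58 RPKM in siTdg G1 against 21.0 and 16.6 RPKM in siC G1 and a change of -0.56 ± 0.32 (SE), which did not pass. Depdc1a had 6.77 and 7.48 RPKM in siTdg G1 against 8.48 and 9.05 RPKM in siC G1, and its change was -0.30 ± 0.11 (SE, unadjusted p = 0.0323, adjusted p = 0.915). Kif18a had 11.7 and 12.3 RPKM in siTdg G1 against 14.0 and 13.2 RPKM in siC G1, and G2e3 3.09 and 2.72 RPKM against 3.77 and 3.17 RPKM. Their changes were -0.19 ± 0.10 and -0.23 ± 0.12 (SE). None of the 3 overlapped and none passed. In G2M the median of the members was -0.01, 0 members were called, both siTdg libraries lay above both siC libraries for 7 members, against 11.5% of all genes, and below them for 4, against 14.0%, and Tdg was the 1 gene that passed (0.00803%). These counts use the values rescaled over both phase tables. On the values as deposited they were 11 above and 1 below (Prc1) in G2M, and 1 above and 16 below in G1, so the small differences between siRNAs depend on the scaling. The smallest p among members in G2M were those of Depdc1b, at -0.14 ± 0.10, Nusap1, at 0.12 ± 0.10, and Ncapg, at 0.09 ± 0.09 (SE).

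Transcript length moved with several of these differences. The deposited values imply a length for each gene, from 1353 bases for Spc24 to 11157 bases for Cenpf in the ESC tables. Across the 58 members the change with siTdg within G1 was lower for longer transcripts, with Spearman's rho of -0.59, and across all genes rho was -0.56. Within G2M it was -0.38 for the members and -0.35 for all genes. The difference between replicate 2 and replicate 1 also moved with length, though not in every group. Its rho was -0.53 in siTdg EBs and -0.61 in siC EBs for the members, beside -0.52 and -0.53 for all genes, and -0.60 in siTdg G1 and -0.59 in siC G1 for the members, beside -0.54 and -0.36 for all genes. It was -0.56 in siTdg G2M and -0.42 in siC G2M, and -0.38 in siTdg and -0.45 in siC ESCs at 96 h, but -0.10 in siTdg and 0.11 in siC ESCs at 48 h. For the change between phases rho was 0.29 in siTdg ESCs and 0.23 in siC ESCs for the members, beside 0.38 and 0.11 for all genes. For the difference between these changes, siTdg minus siC, it was 0.48 for the members and 0.41 for all genes. The genes of a library share its RNA and its preparation, so these values describe libraries and carry no p. The part of transcript length in the members' changes was not tested.

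**Figure D5:**
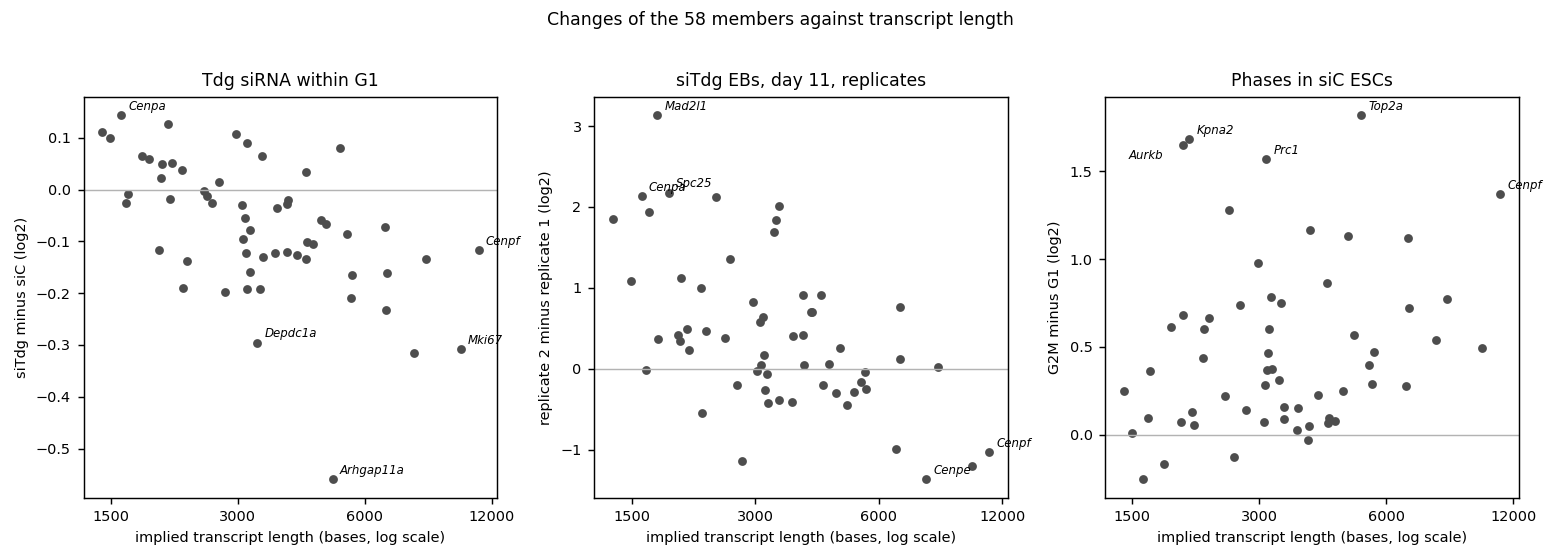
Change of each of the 58 genes on the log2(RPKM + 0.5) scale against its implied transcript length in bases (log axis): siTdg minus siC within G1 (left), replicate 2 minus replicate 1 in siTdg EBs (middle) and G2M minus G1 in siC ESCs (right). On the left and in the middle long transcripts lie lower (Spearman's rho of -0.59 and -0.53), while on the right the genes that changed most are found at short and long lengths alike (rho of 0.23).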

How the data were processed

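The deposited expression values are RPKM, which the authors gave in 1 table per pair of groups with separate scaling. The submitters' processing notes name TopHat and DESeq2. The annotation, the counting tool and the handling of reads shared by near-identical genes were not given in the sources used here. RNA was depleted of ribosomal RNA and sequenced with a stranded kit, per the labels' protocols. The authors also deposited, per comparison, log2 fold changes and p-values with adjusted p-values, which are quoted only as theirs. The authors' mean normalised counts over a comparison are treated here as a signal, and the authors' standard errors of the log2 fold changes as a score with no fixed range; both were deposited, per the file headers. In the table for 96 h decimal commas were read as points, and other deposited columns of names and positions were used only to match genes.

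Reads were recovered from the RPKM by means of these mean counts. A whole number of reads, to within 0.01, was obtained for 100.0% of the values above 0. Depth is the sum of these reads. RPKM printed per library are as deposited, and the 8 phase libraries were rescaled together by median of ratios before fitting, since both phase tables gave gene lengths equal within 0.1%. No pair of libraries agreed within sampling noise. The RPKM of 4 columns labelled 0 h belong to no listed sample and were left out. Day 9 EBs, chromatin and modified DNA samples and peak lists were not analysed here.

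Tests were made on log2(RPKM + 0.5) with limma 3.58.1 (R 4.3.3), two-sided, using moderated variances with a mean trend and leaving out genes whose mean was under 0.5 RPKM, with Benjamini-Hochberg adjustment over all genes and a threshold of 0.05. One model held the 8 ESC libraries of 48 h and 96 h, one the 8 phase libraries and one the 4 EB libraries, without replicate number as a term. Fits were tested on simulated data with 200 changed genes, in which each library was drawn independently. Values per library are given for called members, for the highest and lowest change of each role group and for the 3 smallest p of each siTdg comparison; the choice of other members shown per library was made with their values in view. The members and gene lists were chosen with earlier results of these data known. Alternatives were pseudocounts of 0.1 and 1 RPKM, no filter, quantile normalization, limma-voom on recovered reads, a replicate block, each phase table alone and each replicate left out. Limma-voom with a replicate block, and overlap of libraries on the phase values as deposited, were added after seeing the data. A called gene of the further G2 and mitosis genes is not reported here.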

Additional observations from a re-analysis of the deposited data

Results flagged for a closer look

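Ect2, the RhoA activator of cytokinesis, was lower with siTdg in both G1 libraries and higher in both G2M libraries. The change with siTdg was 0.048 within G2M and -0.13 within G1 on the log2(RPKM + 0.5) scale. It was noticed because the libraries of the 2 phases moved in opposite directions. These changes differed by 0.17 ± 0.12 (SE), which limma did not call (adjusted p = 1.00).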

How the results depend on the processing

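With 2 libraries per group, members called between phases depend on how the spread is estimated. Same-numbered libraries deviated together (correlation of 0.59 to 0.95 by comparison), so they share more than a number. The labels name no pairing, there are only 2 numbers per group, and what these libraries share is not known. With the replicate number as a block, genes called were 280 at 48 h, 15 at 96 h, 150 in EBs, 868 for siTdg phases, 581 for siC phases, 2 within G1, 3 within G2M and 14 for 96 h minus 48 h. Members called under the replicate block were 34 higher in G2M with siTdg and 30 with siC, and 2 lower at 48 h (Tpx2, adjusted p = 0.00247, and Pttg1, adjusted p = 0.0257). Those higher in G2M with both siRNAs include the kinetochore genes Cenpf (adjusted p = 0.00038 with siTdg and 0.00031 with siC), Cenpe and Spc25. Limma-voom with the block called 804, 273, 60, 1190, 838, 19 and 79 genes at 48 h, at 96 h, in EBs, for siTdg phases, for siC phases, within G1 and for 96 h minus 48 h. It called 34 and 33 members higher with siTdg and siC phases, 2 lower at 48 h, 1 higher at 96 h (Depdc1a) and 1 higher for 96 h minus 48 h (Tpx2). All 12 and 9 members called without the block were among those called with it. Each phase table alone called 0 genes and 0 members for siTdg and 3 genes and 3 members for siC. Without a filter the genes called were 4 at 96 h, 6 within G1, 4 within G2M, 7 for the interaction and 4 for 96 h minus 48 h. Leaving out each replicate gave 0 to 1 genes in EBs, 0 to 4 genes and 0 to 4 members for siTdg phases, 0 to 0 genes and members for siC phases, 0 to 0 genes within G1 and 0 to 1 within G2M, each lone library being assumed to vary like the other groups. The members' median then ranged from 0.42 to 0.55 for siTdg phases, from -0.078 to 0.053 within G2M, from -0.013 to 0.11 for the interaction and from 4.9e-05 to 0.12 for 96 h minus 48 h. Signs turned for members near 0. Bub1b in siC phases was -0.0070 under quantile normalization. With a replicate left out, siTdg phases ran from -0.20 to 0.015 for Ckap2, from -0.082 to 0.027 for Kif20a and from -0.038 to 0.30 for Racgap1. In siC phases Bub1b ran from -0.043 to 0.10, Ckap2 from -0.32 to 0.071, Kif20a from -0.13 to 0.063 and Racgap1 from -0.0094 to 0.16. Depdc1a ran from -0.031 to 0.79 at 96 h and from -0.032 to 0.79 for 96 h minus 48 h, and Tdg from -0.11 to 0.37 for the interaction. The cause of these shifts was not tested. Pseudocounts of 0.1 and 1 RPKM kept all 12 and 9 members called in siTdg and siC phases.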
